A study of Homo sapiens with 2 samples.

Results

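HCC38 and Hs578T, 2 human triple-negative breast cancer cell lines, were compared within 1 single-cell RNA capture. Cells that carried multiplexing oligo CMO306 are called HCC38-like here and cells that carried CMO305 Hs578T-like, because the labels name the lines and the pools but not which oligo marked which line. A barcode was kept when it held at least 1000 gene transcript molecules (unique molecular identifiers, UMIs), at least 500 detected genes, at most 20% mitochondrially encoded UMIs and at least 80% of its oligo UMIs from 1 oligo. These rules left 2474 HCC38-like and 1733 Hs578T-like cells, 4207 of the 17605 barcodes of the series.

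The study profiled 6 breast tumour lines by droplet-based 3′ sequencing, each line stained with its own lipid-anchored oligo and then mixed, in equal ratio, into pools of 3 lines. HCC38 (p5 in the labels) and Hs578T (p4) shared a pool and a capture with MDA-MB-436 (p4), and 15000 cells were loaded per pool. The cells had no treatment in the labels, and the genotype of the lines is not given there. Each line was 1 culture in 1 capture, so no test over samples was possible, no p-value is given, and every interval below is a 95% interval that covers counting error only.

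Epithelial cells are held together by cadherin junctions, tight junctions and desmosomes and carry keratin filaments, whereas mesenchymal cells deposit collagenous matrix, carry vimentin filaments and move singly. In the epithelial-mesenchymal transition, transcription factors of the ZEB, SNAI and TWIST families repress junction genes such as CDH1, and epithelial factors such as OVOL2, GRHL2 and the ESRP splicing regulators oppose them. HCC38 is usually described as a basal-like triple-negative line, and Hs578T, which came from a carcinosarcoma of the breast, as a mesenchymal one.

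The summed HCC38-like cells held 91.9 M UMIs and the Hs578T-like cells 72.1 M, with medians of 34304 and 38173 UMIs and of 6396 and 6488 genes per cell. The filter kept 92.7% of HCC38-like and 75.7% of Hs578T-like barcodes, and 94 and 254 barcodes were removed for their oligo share alone. The median mitochondrial share of the kept cells was 5.90% and 5.88% in HCC38-like and Hs578T-like cells. No barcode sequence was shared between the 3 lines of the capture. Levels are gene UMIs scaled to a total of 1 M in each line (CPM), and the third line of the capture, the 2170 cells that carried CMO304, is given beside them as a view of background in the same droplets.

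The names were checked against marker lists of 10 genes for each line. All 10 Hs578T markers, among them the mesenchymal transcription factor genes PRRX1 and TWIST1 and the collagen gene COL3A1, were highest in Hs578T-like cells, and their summed level was 126 CPM in HCC38-like, 2823 CPM in Hs578T-like and 217 CPM in CMO304 cells. Of the 10 HCC38 markers, 9 were highest in HCC38-like cells, with summed levels of 3832, 137 and 52.4 CPM in the same order. The exception was the basal keratin gene KRT17, at 4.46 CPM in HCC38-like and 101 CPM in Hs578T-like cells. None of the 4 endothelial and 5 immune markers of these lists reached 10 CPM in either line. CD68, a macrophage gene of the wider fibroblast, endothelial and immune list, was at 4.76 CPM in HCC38-like, 32.1 CPM in Hs578T-like and 65.5 CPM in CMO304 cells. All 5 fibroblast markers (LUM, DCN, COL1A1, COL3A1 and PDGFRA) were highest in Hs578T-like cells, with a sum of 63.8 CPM in HCC38-like and 1281 CPM in Hs578T-like cells, and fibroblast genes are part of what Hs578T is known for.

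Of 9485 genes that reached 10 CPM in either line, 1724 (18.2%) reached a 2-fold higher level in HCC38-like cells and 1357 (14.3%) a 2-fold lower one, on the scale of CPM + 1. In all counts of genes below, higher and lower mean by 2-fold or more on this scale, and 18.2% and 14.3% are the shares to set each count beside. A gene that reaches 10 CPM in 1 line only is counted through that line, so the gene filter itself favours large ratios. This holds for most called genes of the epithelial regulator, EMT transcription factor, basal, interferon, HOX and germline and neuronal lists. At 8-fold or more, 427 genes (4.50%) were higher and 283 (2.98%) lower. The median log2 ratio of all measured genes was 0.14. Scaling by the trimmed mean of M-values (TMM) moved that median to -0.16 and turned the split round, to 12.3% of genes called higher and 20.8% called lower. The share of higher genes among all called ones was 56.0% with CPM and 37.1% with TMM, so the balance of the 2 directions rests on the scaling, and single genes are read below against a shift of this size.

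**Figure D1:**
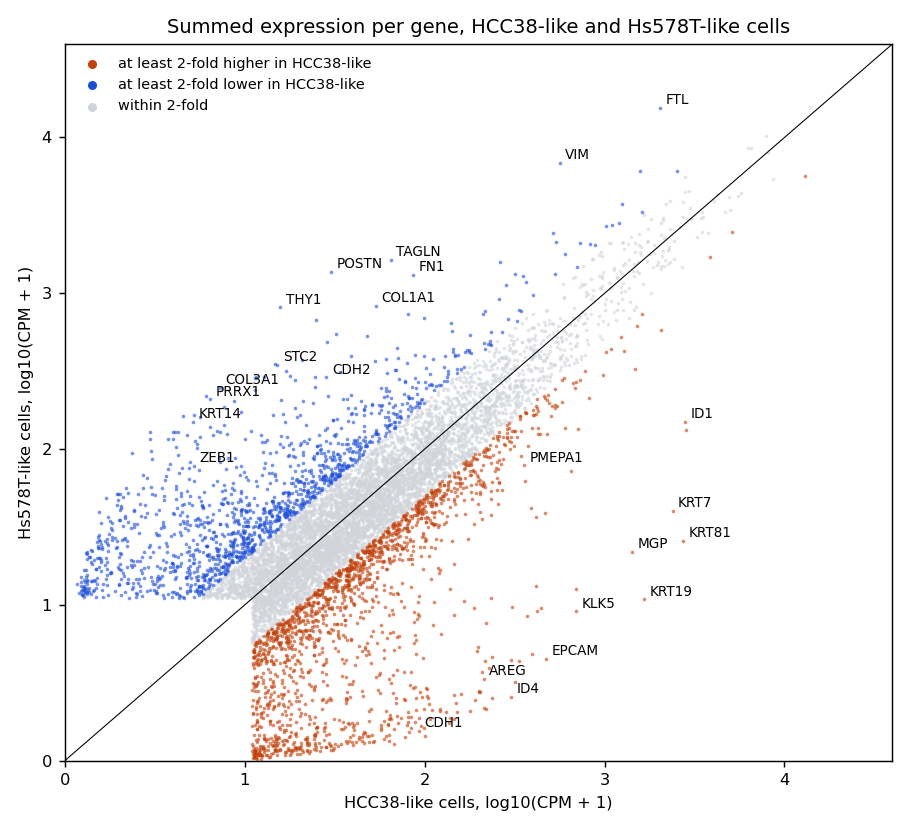
Summed level of each of the 9485 measured genes, as log10(CPM + 1), in HCC38-like cells (horizontal axis) and Hs578T-like cells (vertical axis), with points coloured by whether a gene was at least 2-fold higher, at least 2-fold lower or within 2-fold in HCC38-like cells, and the line of equality in black. KRT19 lies far below the line, at 1654 CPM in HCC38-like and 9.85 CPM in Hs578T-like cells, and POSTN far above it, at 29.1 CPM in HCC38-like and 1379 CPM in Hs578T-like cells.

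Among genes that reached 100 CPM, the 12 highest log2 ratios belonged to KRT19, ID4, KRT81, EPCAM, CA2, S100A14, HIST1H3G, CST6, DSC2, SPINT2, PLXDC2 and TSTD1. KRT19, a keratin of simple epithelia, was 168-fold higher in HCC38-like cells (156 to 181). ID4, an inhibitor of basic helix-loop-helix factors that is found in basal breast cells, stood at 302 CPM in HCC38-like and 1.58 CPM in Hs578T-like cells, a 191-fold difference (159 to 232). CA2, a carbonic anhydrase, stood at 220 CPM in HCC38-like and 1.15 CPM in Hs578T-like cells. The replication-dependent histone gene HIST1H3G, whose transcripts mostly lack a poly(A) tail, was at 213 CPM in HCC38-like, 1.18 CPM in Hs578T-like and 23.9 CPM in CMO304 cells.

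The 12 lowest were THY1, POSTN, COX7A1, SULF1, LINC01444, SCG5, COL3A1, PRRX1, LUM, CCN3, CADM1 and ITGA11. THY1, a surface glycoprotein of fibroblasts, was at 14.8 CPM in HCC38-like and 811 CPM in Hs578T-like cells, 54.8-fold lower in HCC38-like cells (51.9 to 57.9). POSTN, which encodes the matrix protein periostin, was at 29.1 CPM in HCC38-like and 1379 CPM in Hs578T-like cells. COX7A1, a muscle-type subunit of cytochrome oxidase, was at 1.99 CPM in HCC38-like and 128 CPM in Hs578T-like cells.

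Folds of genes of 1 line are bounded by transcripts that reach other cells of the capture. Among the 1657 genes at 100 CPM or more in Hs578T-like cells, the lowest level in HCC38-like cells was 1.56% of the Hs578T-like level, and the 1st percentile was 3.09%. The corresponding values in CMO304 cells were 1.31% and 2.33%. Without called doublets and mixed cells (those holding transcripts of another line), the lowest level in HCC38-like cells was 0.929% and the 1st percentile 2.07%. In the other direction, over 1821 genes at 100 CPM or more in HCC38-like cells, the lowest level in Hs578T-like cells was 0.524% and the 1st percentile 0.895%. THY1 was at 14.8 CPM in HCC38-like and 12.8 CPM in CMO304 cells, and POSTN at 29.1 and 24.2 CPM, so such low levels in HCC38-like cells cannot be told from background. Without doublets and mixed cells, the log2 ratio of THY1 was -6.55 in place of -5.68, and with every barcode kept it was -4.94.

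Epithelial junction and polarity genes were higher in HCC38-like cells almost as a whole. Of 35 measured genes of the list, 34 were at least 2-fold and 31 at least 8-fold higher. None was 2-fold lower, and the median log2 ratio was 4.99, beside 0.14 over all measured genes. Most of these genes reached 10 CPM only in HCC38-like cells, so the gene filter itself favours high ratios in this list. Summed over the list, the level was 4036 CPM in HCC38-like, 166 CPM in Hs578T-like and 338 CPM in CMO304 cells.

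EPCAM, a homotypic adhesion protein of epithelia, was at 473 CPM in HCC38-like, 3.50 CPM in Hs578T-like and 9.10 CPM in CMO304 cells, 135-fold higher in HCC38-like than in Hs578T-like cells (120 to 154). CDH1, which encodes E-cadherin, was at 91.6 CPM in HCC38-like and 0.555 CPM in Hs578T-like cells, a 165-fold difference (121 to 231). CDH3 (P-cadherin), typical of basal epithelium, was at 61.2 CPM in HCC38-like and 0.721 CPM in Hs578T-like cells. The tight junction genes CLDN7, CLDN4 and CLDN3 were at 107, 206 and 79.9 CPM in HCC38-like cells, and at 0.846, 2.69 and 0.763 CPM in Hs578T-like cells. Some desmosomal genes kept a trace in Hs578T-like cells, with DSP at 414 CPM in HCC38-like and 35.8 CPM in Hs578T-like cells and DSG2 at 234 CPM in HCC38-like and 36.8 CPM in Hs578T-like cells. Others did not, such as DSC2, at 177 CPM in HCC38-like and 1.08 CPM in Hs578T-like cells. CDH2 (N-cadherin), the cadherin of mesenchymal and neural cells, had the opposite pattern, at 27.5 CPM in HCC38-like, 288 CPM in Hs578T-like and 61.6 CPM in CMO304 cells.

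ZEB and SNAI proteins bind E-boxes of the letters CACCTG, read as CAGGTG on the other strand, and both spellings were searched in promoter windows of 300 bases (250 before and 50 after each RefSeq start site, GRCh38.p14). Only the measured genes of a list were looked up. Windows were at hand for 20 of 35 such genes of the epithelial list and 29 of 38 of the mesenchymal cytoskeleton list. They were at hand for 24 of 33 of the collagen list and 12 of 27 of the basal and stratified epithelium list. The shares below leave out the other genes. A window of the epithelial list held a match in 15 of 28 cases (53.6%), against 20.6% of all 35116 windows. In the mesenchymal cytoskeleton list it was 9 of 58 windows (15.5%), in the collagen list 5 of 32 (15.6%) and in the basal and stratified list 8 of 21 (38.1%). CLDN7 and CRB3, a subunit of the apical Crumbs complex (35.9 CPM in HCC38-like and 0.291 CPM in Hs578T-like cells), each held 5 matches, and 0.094% of all windows held 5 or more. JUP, which encodes the junction protein plakoglobin (103 CPM in HCC38-like and 1.89 CPM in Hs578T-like cells), held 2. The 3 promoters are shown because their genes differed over 50-fold between the lines and carry the repeated motif, with the matches in capitals, each from 250 bases before to 15 after a start site, 5′ to 3′ on the strand of the gene. CLDN7 is at chr17:7262464-7262728 on the minus strand, CRB3 at chr19:6464021-6464285 on the plus strand, and JUP at chr17:41785962-41786226 on the minus strand.
CLDN7: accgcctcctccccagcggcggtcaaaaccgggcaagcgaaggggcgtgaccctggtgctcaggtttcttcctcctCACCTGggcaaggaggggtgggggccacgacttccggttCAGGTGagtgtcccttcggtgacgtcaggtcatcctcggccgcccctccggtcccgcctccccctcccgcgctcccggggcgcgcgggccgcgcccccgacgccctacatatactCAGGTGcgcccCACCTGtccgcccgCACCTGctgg
CRB3: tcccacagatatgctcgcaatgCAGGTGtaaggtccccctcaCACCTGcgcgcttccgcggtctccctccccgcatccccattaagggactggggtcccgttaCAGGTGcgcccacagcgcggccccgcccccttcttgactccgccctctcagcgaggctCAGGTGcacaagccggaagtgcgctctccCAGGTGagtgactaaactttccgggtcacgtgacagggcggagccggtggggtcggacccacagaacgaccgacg
JUP: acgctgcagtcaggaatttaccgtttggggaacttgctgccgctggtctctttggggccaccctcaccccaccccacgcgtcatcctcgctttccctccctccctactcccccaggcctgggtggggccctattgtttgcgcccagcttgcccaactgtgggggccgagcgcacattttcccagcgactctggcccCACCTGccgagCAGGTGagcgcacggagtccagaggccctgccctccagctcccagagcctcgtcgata
In CLDN7 the matches began at bases -174, -135, -20, -9 and 5 from the start site, in CRB3 at -228, -208, -147, -89 and -60, and in JUP at -54 and -43. A match of letters is a description and no evidence of binding.

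The regulators of both states were opposed across the lines. Of 24 measured genes of the EMT and mesenchymal transcription factor list, 14 were at least 2-fold lower in HCC38-like cells and 2 at least 2-fold higher, with a median log2 ratio of -1.59. ZEB1 was at 4.21 CPM in HCC38-like, 76.8 CPM in Hs578T-like and 26.8 CPM in CMO304 cells, and ZEB2 at 3.15, 54.9 and 46.7 CPM in the same order. SNAI2 (Slug) was at 6.66 CPM in HCC38-like and 141 CPM in Hs578T-like cells, 21.1-fold lower in HCC38-like cells (19.5 to 22.97). TWIST1 was at 4.56 CPM in HCC38-like and 72.6 CPM in Hs578T-like cells. PRRX1, a homeobox factor of limb and craniofacial mesenchyme, was at 5.41 CPM in HCC38-like and 208 CPM in Hs578T-like cells, and FOXC2 at 3.80 CPM in HCC38-like and 122 CPM in Hs578T-like cells.

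Not every factor of the family followed. SNAI1 (Snail) stayed under 10 CPM in both lines and was 11.7-fold higher in HCC38-like cells (8.46 to 16.6), at 6.34 CPM in HCC38-like and 0.541 CPM in Hs578T-like cells. SOX9, a progenitor factor of several epithelia, was at 144 CPM in HCC38-like and 17.3 CPM in Hs578T-like cells. FOXC1, a factor often high in basal-like breast tumours, was at 68.5 CPM in HCC38-like and 27.3 CPM in Hs578T-like cells. SOX4 was within 2-fold, at 170 CPM in HCC38-like and 143 CPM in Hs578T-like cells.

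Of 11 measured epithelial regulators, 9 were at least 2-fold higher in HCC38-like cells and none was 2-fold lower. Their median log2 ratio was 2.88. ESRP1, which sets epithelial splice forms, was at 98.9 CPM in HCC38-like and 0.624 CPM in Hs578T-like cells, a 158-fold difference (118 to 217). GRHL2, an activator of junction genes, was at 21.8 CPM in HCC38-like and 0.125 CPM in Hs578T-like cells, and ELF3, an epithelial ETS factor, at 45.01 CPM in HCC38-like and 0.305 CPM in Hs578T-like cells. ESRP2 (6.097 CPM in HCC38-like and 0.139 CPM in Hs578T-like cells) and OVOL2 (8.56 and 0.0694 CPM) lay under the 10 CPM limit in both. TFAP2A, a factor of surface ectoderm, was at 96.3 CPM in HCC38-like and 96.5 CPM in Hs578T-like cells, and at 4.17 CPM in CMO304 cells.

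**Figure D2:**
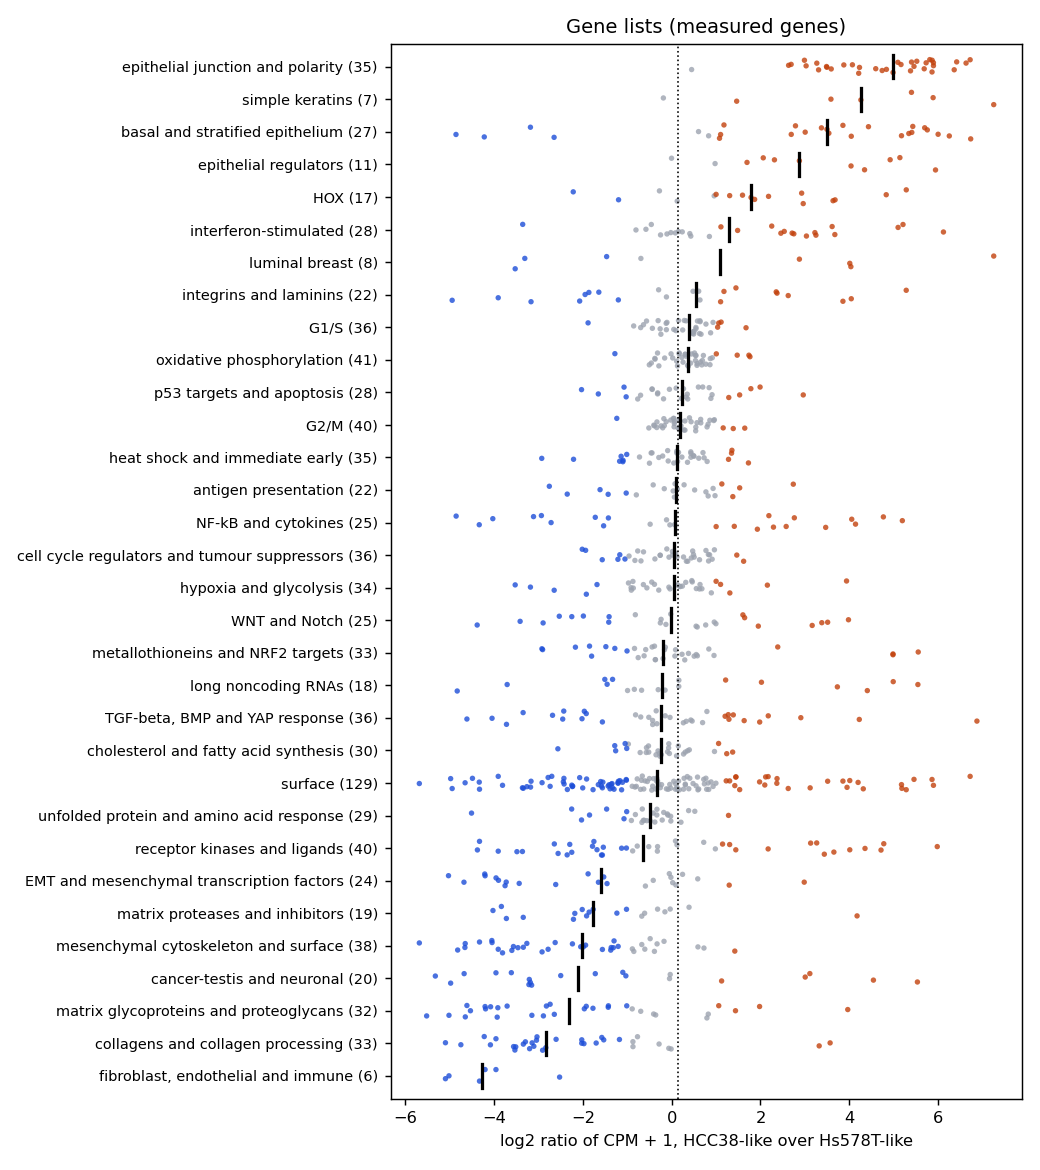
Log2 ratio of CPM + 1, HCC38-like over Hs578T-like, for each measured gene (points) of the 32 gene lists, with the number of measured genes in brackets, the median of each list as a black bar and the median of all measured genes (0.14) as a dotted line. Epithelial junction genes have the highest median, 4.99, and the cell cycle lists lie close to the dotted line. The fibroblast, endothelial and immune list has the lowest, -4.26, over 6 measured genes (COL1A1, COL3A1, DCN, LUM, PDGFRA and CD68), of which none is endothelial. A gene is measured when it reaches 10 CPM in either line, so genes that pass through a single line are bound to lie away from the dotted line.

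Keratins divided the lines in a less simple way than junction genes. The measured genes of the simple keratin list were KRT10, KRT80 and KRT86 besides KRT7, KRT8, KRT18 and KRT19. All but KRT10 were at least 2-fold higher in HCC38-like cells, 6 of 7, with a median log2 ratio of 4.26 for the list. KRT7 was at 2388 CPM in HCC38-like and 39.3 CPM in Hs578T-like cells, and the type II keratin KRT81 at 2736 CPM in HCC38-like and 24.7 CPM in Hs578T-like cells. Reads of KRT81 can be shared with its near-identical copies KRT83 and KRT86. KRT8 and KRT18, which pair in simple epithelia, were unequal: KRT8 was 12.3-fold higher in HCC38-like cells (463 CPM in HCC38-like and 37.6 CPM in Hs578T-like cells) and KRT18 was 2.76-fold higher (682 and 247 CPM).

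Basal and stratified genes were mostly higher in HCC38-like cells, 21 of 27, with 4 at least 2-fold lower. The median log2 ratio was 3.50. SERPINB5 (maspin), a protease inhibitor family member of myoepithelium, was at 76.3 CPM in HCC38-like and 0.430 CPM in Hs578T-like cells, and the kallikrein protease genes KLK5 and KLK10 were at 692 and 131 CPM in HCC38-like and at 8.09 and 1.05 CPM in Hs578T-like cells. KRT5, the basal keratin, was at 11.2 CPM in HCC38-like and 0.0832 CPM in Hs578T-like cells. TP63, the master factor of basal epithelium, was at only 1.27 CPM in HCC38-like and 0.264 CPM in Hs578T-like cells. The 4 lower genes included the partner of KRT5, KRT14, at 4.16 CPM in HCC38-like, 149 CPM in Hs578T-like and 2.53 CPM in CMO304 cells, as well as KRT17, NDRG1 and DST. DST, which links keratin and other filaments to hemidesmosomes or microtubules, was at 69.7 CPM in HCC38-like and 442 CPM in Hs578T-like cells.

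Cytoskeletal and surface genes of mesenchyme were at least 2-fold lower in HCC38-like cells in 27 of 38 cases and at least 2-fold higher in 1 (MME, a membrane peptidase also found on myoepithelium), with a median log2 ratio of -2.02. VIM, which encodes vimentin, was at 564 CPM in HCC38-like, 6848 CPM in Hs578T-like and 1738 CPM in CMO304 cells, 12.1-fold lower in HCC38-like than in Hs578T-like cells (12.03 to 12.25). TAGLN, an actin-binding protein of smooth muscle, was at 63.8 CPM in HCC38-like and 1633 CPM in Hs578T-like cells. ACTG2, the enteric smooth muscle actin, was at 10.6 CPM in HCC38-like and 291 CPM in Hs578T-like cells, and FHL1, a LIM protein of muscle, at 4.68 CPM in HCC38-like and 159 CPM in Hs578T-like cells.

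Smooth muscle promoters often carry the CArG box, the site of serum response factor, and its usual form was searched in the same windows on both strands. It was found in 4 of 58 windows of the mesenchymal list (6.90%, those of ACTG2, CNN2, FHL1 and TPM4) and in 1.29% of all windows. It was found in 1 of 32 windows of the collagen list (3.12%), in 0 of 28 of the epithelial list and in 0 of 21 of the basal and stratified list. CNN2 and TPM4 were within 2-fold between the lines, with log2 ratios of -0.33 and -0.85. The promoter of ACTG2 held 2 matches, as did 0.0313% of all windows, and is shown for that reason, with the matches in capitals (GRCh38.p14, chr2:73892758-73893022, plus strand, RefSeq).
ACTG2: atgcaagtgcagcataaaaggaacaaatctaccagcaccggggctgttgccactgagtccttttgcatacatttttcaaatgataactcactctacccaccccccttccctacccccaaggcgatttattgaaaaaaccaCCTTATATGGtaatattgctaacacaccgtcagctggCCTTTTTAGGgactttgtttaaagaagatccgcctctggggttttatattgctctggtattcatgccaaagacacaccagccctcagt
The matches in ACTG2 began 110 and 73 bases before the start site.

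The plot of epithelial against mesenchymal transcripts shows how far single cells kept to the pattern of their line. Epithelial junction transcripts made up a median of 0.411% of the UMIs of an HCC38-like cell (5th to 95th percentile 0.186% to 0.650%) and 0.0147% of those of a Hs578T-like cell (0.00372% to 0.0356%). Mesenchymal transcripts made up 0.935% (0.617% to 1.65%) in HCC38-like and 3.12% (2.19% to 4.54%) in Hs578T-like cells. Of the HCC38-like cells, 2435 (98.4%) lay above the 95th percentile of Hs578T-like cells in epithelial transcripts. Of the Hs578T-like cells, 1726 (99.6%) lay above the 95th percentile of HCC38-like cells in mesenchymal transcripts.

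**Figure D3:**
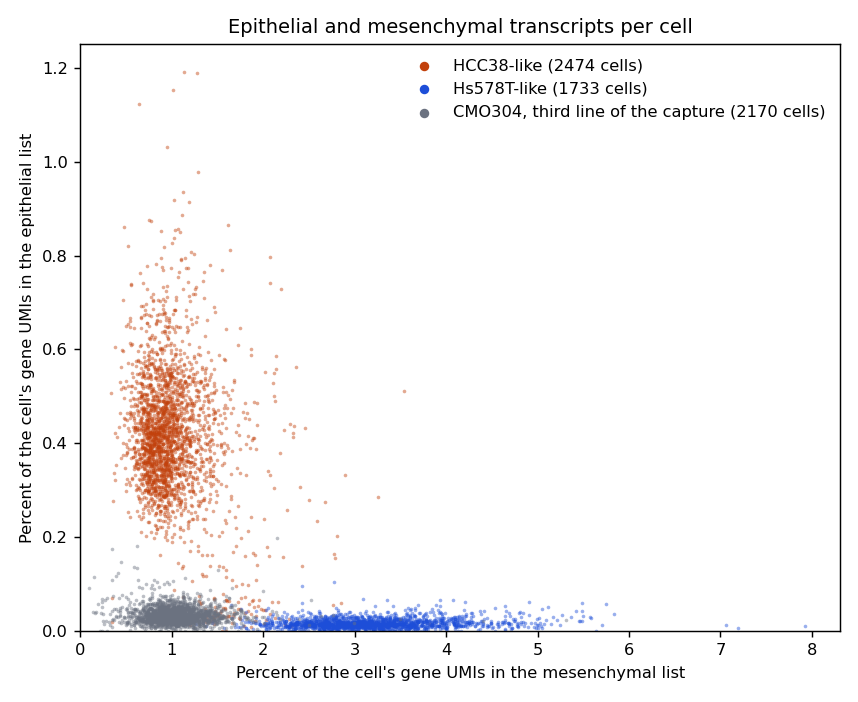
Each point is a cell, placed by the percent of its gene UMIs in the mesenchymal cytoskeleton and surface list (horizontal axis) and in the epithelial junction and polarity list (vertical axis). HCC38-like cells (2474) rise along the epithelial axis, Hs578T-like cells (1733) spread along the mesenchymal axis, CMO304 cells (2170) lie low on both, and a small group of HCC38-like cells lies at the foot of the plot.

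The remaining 39 HCC38-like cells, chosen by their low epithelial share after the data had been seen, were described further. The doublet and mixed-cell calls removed 8, and the other 31 held 1.05 M UMIs with a median of 31020 per cell. Genes outside the list that chose the cells stood at other levels than in the whole line. VIM stood at 4129 CPM in these 31 cells (4007 to 4253), against 564 CPM over all HCC38-like cells, ZEB1 at 58.9 CPM (45.1 to 75.4) against 4.21 CPM, SNAI2 at 48.4 CPM against 6.66 CPM and CDH2 at 247 CPM against 27.5 CPM. ESRP1 had 0 UMIs, which allows up to 2.85 CPM (3 counts), and the simple keratin KRT19 was at 22.8 CPM against 1654 CPM.

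The same 31 cells kept other transcripts of the HCC38-like line. KRT7 was at 1606 CPM, KRT81 at 1359 CPM, ID1 at 2134 CPM and the deubiquitinase gene UCHL1 at 452 CPM. All were more than 10-fold above the levels over all Hs578T-like cells (39.3, 24.7, 149 and 8.60 CPM). UCHL1 was at 535 CPM in CMO304 cells, so it does not tell the HCC38-like line from the third line of the capture. KRT7, KRT81 and ID1 were lower in CMO304 cells than in the 31 cells, with ID1 at 48.9 CPM. Of the genes of the Hs578T-like line, THY1 was at 8.54 CPM and PRRX1 at 0 UMIs in the 31 cells, against 811 and 208 CPM over Hs578T-like cells. Mixed cells were left out by genes specific to another line, so these low values are not independent of that choice. Over all 39 cells THY1 was at 13.3 CPM, PRRX1 at 7.39 CPM, VIM at 4307 CPM and ZEB1 at 56.1 CPM, and the part of mixed droplets was not tested. COL1A1 was at 182 CPM in the 31 cells, against 52.7 CPM over all HCC38-like cells.

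VIM itself was uneven within the HCC38-like line. With every cell thinned to 10000 UMIs, which 2393 HCC38-like and 1711 Hs578T-like cells reached, HCC38-like cells held a median of 1 VIM UMI (5th to 95th percentile 0 to 26) and 28.7% held none. Hs578T-like cells held a median of 65 (33 to 105), and all of them at least 10. At least 10 VIM UMIs were found in 310 HCC38-like cells (13.0%). Without doublets and mixed cells 259 were left, in which VIM was at 2326 CPM, EPCAM at 345 CPM, KRT7 at 2310 CPM, CDH2 at 92.8 CPM and THY1 at 8.81 CPM. EPCAM and VIM UMIs were found together in 66.7% of HCC38-like, 3.57% of Hs578T-like and 8.25% of CMO304 cells. VIM is among the most abundant transcripts of the other lines in the droplets, and the part of free RNA in HCC38-like cells with few VIM UMIs was not tested.

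Most collagen and matrix genes were lower in HCC38-like cells. Of 33 measured collagen and collagen-processing genes, 25 were at least 2-fold lower in HCC38-like cells and 2 at least 2-fold higher, with a median log2 ratio of -2.83. The chains of fibrillar collagen I, COL1A1 and COL1A2, were at 52.7 and 24.0 CPM in HCC38-like cells and at 833 and 671 CPM in Hs578T-like cells. COL3A1 was at 6.26 CPM in HCC38-like, 247 CPM in Hs578T-like and 5.395 CPM in CMO304 cells. The crosslinking enzyme gene LOX was at 6.02 CPM in HCC38-like and 130 CPM in Hs578T-like cells. The 2 higher genes, COL4A5 and COL4A6, encode basement membrane chains that are arranged head to head on the X chromosome, at 17.1 and 10.4 CPM in HCC38-like and 0.527 and 0.139 CPM in Hs578T-like cells.

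Matrix glycoproteins and proteoglycans gave 22 lower and 4 higher genes of 32, with a median log2 ratio of -2.31. FN1, which encodes fibronectin, was at 85.0 CPM in HCC38-like and 1309 CPM in Hs578T-like cells. Besides POSTN and the collagen-binding proteoglycan gene LUM (3.00 CPM in HCC38-like and 129 CPM in Hs578T-like cells), VCAN (10.5 and 286 CPM) and the microfibril gene FBN1 (8.49 and 172 CPM) were among the lower ones. EFEMP1, a fibulin, was at 164 CPM in HCC38-like and 9.59 CPM in Hs578T-like cells, and the wound matrix gene TNC at 26.1 CPM in HCC38-like and 9.02 CPM in Hs578T-like cells.

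Integrins and laminins were divided between the lines, with 9 genes higher, 8 lower and 5 within 2-fold. Among the higher genes were those of the epithelial integrin chain ITGB6 (51.4 CPM in HCC38-like and 0.347 CPM in Hs578T-like cells), of the hemidesmosome chains ITGB4 (17.5 and 0.277 CPM) and ITGA6 (59.1 and 8.74 CPM) and of the laminin-332 chain LAMA3 (23.3 and 0.472 CPM). The higher genes also included ITGB8, ITGA4 (88.2 CPM in HCC38-like and 31.7 CPM in Hs578T-like cells) and LAMA4 (23.3 and 3.75 CPM), and the last 2 are not genes of hemidesmosomes. Among the lower genes were the collagen receptor subunits ITGA11 (2.77 CPM in HCC38-like and 115 CPM in Hs578T-like cells) and ITGA1 (1.96 and 11.4 CPM) and the fibronectin receptor subunit ITGA5 (15.7 and 149 CPM). The collagen receptor subunit ITGA2 (87.7 CPM in HCC38-like and 108 CPM in Hs578T-like cells) and the shared subunit ITGB1 (842 and 914 CPM) were within 2-fold. Of 19 matrix proteases and inhibitors, 12 were at least 2-fold lower in HCC38-like cells, such as ADAM12 (3.32 CPM in HCC38-like and 69.3 CPM in Hs578T-like cells). The epithelial protease gene MMP7 was the only one at least 2-fold higher, at 21.8 CPM in HCC38-like and 0.264 CPM in Hs578T-like cells, and ADAM10 was 1.32-fold higher (1.26 to 1.38).

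Of 40 measured receptor kinases and ligands, 13 were higher and 18 lower by 2-fold or more in HCC38-like cells, with a median log2 ratio of -0.65. Some ligands of the EGF receptor were among the higher ones. AREG was at 212 CPM in HCC38-like, 2.37 CPM in Hs578T-like and 11.2 CPM in CMO304 cells. EREG was at 68.6, 1.54 and 104 CPM and TGFA at 30.0, 0.180 and 3.08 CPM in the same order. The EGF receptor ligand gene HBEGF was among the lower ones, at 7.35, 27.7 and 10.6 CPM. The receptor gene EGFR was at 49.7 CPM in HCC38-like and 85.8 CPM in Hs578T-like cells, within 2-fold with CPM. With TMM scaling the log2 ratio of EGFR was -1.05, just past 2-fold. ERBB3 was at 26.98 CPM in HCC38-like and 0.735 CPM in Hs578T-like cells. PDGFRA and PDGFRB, receptors of stromal cells, were at 1.02 and 0.359 CPM in HCC38-like and at 39.6 and 19.4 CPM in Hs578T-like cells, and FGF5 was at 1.73 CPM in HCC38-like and 55.7 CPM in Hs578T-like cells. AXL was at 84.2 CPM in HCC38-like and 250 CPM in Hs578T-like cells.

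In the TGF-beta, BMP and YAP response list the members parted as well, with 10 of 36 higher and 11 lower. All measured genes gave 18.2% higher and 14.3% lower. ID1 and ID4, direct targets of BMP signalling in many cells, were higher: ID1 was at 2809 CPM in HCC38-like, 149 CPM in Hs578T-like and 48.9 CPM in CMO304 cells, 18.8-fold higher in HCC38-like than in Hs578T-like cells (18.5 to 19.2). The other ID genes of the list were within 2-fold. ID2 was at 70.7 CPM in HCC38-like and 72.6 CPM in Hs578T-like cells, and ID3 at 777 CPM in HCC38-like and 647 CPM in Hs578T-like cells. PMEPA1, a feedback inhibitor of TGF-beta signalling, was at 354 CPM in HCC38-like and 77.7 CPM in Hs578T-like cells, and the ligand gene BMP7 at 11.3 CPM in HCC38-like and 0.638 CPM in Hs578T-like cells. Lower were the activin gene INHBA (23.5 CPM in HCC38-like and 248 CPM in Hs578T-like cells), the latent TGF-beta binding protein gene LTBP1 (6.64 and 186 CPM) and CCN2, a target of YAP (59.7 and 236 CPM). Its relative CCN1 was within 2-fold, at 599 CPM in HCC38-like and 345 CPM in Hs578T-like cells.

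WNT and Notch genes gave 7 higher and 8 lower of 25, around a median log2 ratio of -0.02. All measured genes gave 18.2% higher and 14.3% lower. The WNT inhibitor gene DKK1 was at 652 CPM in HCC38-like and 71.8 CPM in Hs578T-like cells. Among the ligands, WNT6 was higher in HCC38-like cells (17.6 CPM in HCC38-like and 0.180 CPM in Hs578T-like cells), while WNT5A (2.86 and 79.5 CPM) and WNT5B (4.76 and 41.8 CPM), which act mainly without beta-catenin, were lower. WNT7B was lower as well, at 34.5 CPM in HCC38-like and 93.8 CPM in Hs578T-like cells. The Notch ligand gene JAG2 and the Notch target NRARP were at 13.7 and 11.6 CPM in HCC38-like and at 0.291 and 0.208 CPM in Hs578T-like cells. Another Notch ligand gene, JAG1, was lower, at 32.8 CPM in HCC38-like and 88.7 CPM in Hs578T-like cells.

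Of 28 measured interferon-stimulated genes, 15 reached a 2-fold higher level in HCC38-like cells and 1 a 2-fold lower one. Most of the higher genes reached 10 CPM in HCC38-like but not in Hs578T-like cells, so the gene filter itself favours high ratios here. The median log2 ratio of the 28 genes was 1.30. HERC5, the ligase for ISG15, was at 99.5 CPM in HCC38-like, 0.444 CPM in Hs578T-like and 32.5 CPM in CMO304 cells, a 224-fold difference between HCC38-like and Hs578T-like cells (159 to 328). MX1, an antiviral GTPase, was at 61.7 CPM in HCC38-like and 0.694 CPM in Hs578T-like cells, and ISG15 itself at 362 CPM in HCC38-like and 61.7 CPM in Hs578T-like cells. IFITM3 was the gene at least 2-fold lower, at 15.4 CPM in HCC38-like, 167 CPM in Hs578T-like and 207 CPM in CMO304 cells. Smaller differences in the same direction were seen for SAMD9 (32.3 CPM in HCC38-like and 57.1 CPM in Hs578T-like cells), IFI16 (46.6 and 70.2 CPM), IFIT5 and GBP1.

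The interferon transcripts were spread unevenly over HCC38-like cells. They made up a median of 0.119% of UMIs in HCC38-like and 0.0947% in Hs578T-like cells, but the 95th percentile was 0.499% in HCC38-like and 0.165% in Hs578T-like cells. Of the HCC38-like cells, 674 (27.2%) lay above that Hs578T-like 95th percentile. With genes of at least 50 CPM only, 5 interferon genes were at least 2-fold higher in HCC38-like cells.

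Antigen presentation genes gave 4 higher (18.2%) and 5 lower (22.7%) of 22, shares near the 18.2% and 14.3% of all measured genes. HLA-B was at 576 CPM in HCC38-like and 198 CPM in Hs578T-like cells, PSMB9, an immunoproteasome subunit, at 157 CPM in HCC38-like and 59.8 CPM in Hs578T-like cells, and B2M at 1237 CPM in HCC38-like and 1019 CPM in Hs578T-like cells. Reads of HLA genes can be split among near-identical copies. The stress ligand genes MICA (12.7 CPM in HCC38-like and 69.0 CPM in Hs578T-like cells) and ULBP2 (0.991 and 12.4 CPM), seen by natural killer cells, were lower.

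Cytokine genes were divided between the lines too. Of 25 NF-kB and cytokine genes, 12 were higher and 9 lower in HCC38-like cells. The chemokine genes CXCL1 (69.7 CPM in HCC38-like and 0.930 CPM in Hs578T-like cells), CXCL6 (19.5 and 0.236 CPM) and CCL5 (47.8 and 0.791 CPM) and the cytokine gene IL18 (21.3 and 0.264 CPM) were higher. CXCL12, a stromal chemokine, was at 3.02 CPM in HCC38-like and 115 CPM in Hs578T-like cells, and CXCL8 (3.39 and 36.9 CPM), TSLP (0.337 and 20.8 CPM) and the decoy receptor gene TNFRSF11B (1.55 and 50.3 CPM) were lower as well.

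Of 33 metallothionein and NRF2 target genes, 4 were higher and 8 lower, beside 18.2% and 14.3% of all measured genes. FTL, the ferritin light chain, was at 2043 CPM in HCC38-like, 15495 CPM in Hs578T-like and 12396 CPM in CMO304 cells, 7.58-fold lower in HCC38-like than in Hs578T-like cells (7.55 to 7.62). Its partner FTH1 was within 2-fold, at 7860 CPM in HCC38-like and 10158 CPM in Hs578T-like cells. HMOX1, which releases iron from haem, was at 11.7 CPM in HCC38-like and 94.4 CPM in Hs578T-like cells, and the cystine transporter gene SLC7A11 at 44.8 CPM in HCC38-like and 164 CPM in Hs578T-like cells. NQO1, a usual target of NRF2, was at 1009 CPM in HCC38-like and 859 CPM in Hs578T-like cells. The metallothionein gene MT1G (79.1 CPM in HCC38-like and 0.708 CPM in Hs578T-like cells), whose reads can be shared within its family, and ALDH1A3, a retinal dehydrogenase used as a stem-cell marker (416 and 12.2 CPM), were higher. Metallothionein genes did not move together. MT1F was higher (43.8 CPM in HCC38-like and 0.416 CPM in Hs578T-like cells) and MT1M lower (29.6 and 84.5 CPM). MT2A, the most abundant of those listed, was within 2-fold, at 2204 CPM in HCC38-like and 3718 CPM in Hs578T-like cells.

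Of 29 unfolded protein and amino acid response genes, 7 were at least 2-fold lower and 1 (ATF3) at least 2-fold higher, with a median log2 ratio of -0.48. All measured genes gave 14.3% lower and 18.2% higher. STC2, a secreted stress protein, was at 14.2 CPM in HCC38-like and 345 CPM in Hs578T-like cells, and XBP1 at 61.3 CPM in HCC38-like and 171 CPM in Hs578T-like cells. Hypoxia and glycolysis genes gave 5 higher and 5 lower of 34, cholesterol and fatty acid synthesis 3 and 5 of 30, heat shock and immediate early genes 4 and 7 of 35, and oxidative phosphorylation 4 and 1 of 41. The shares of higher genes in these 4 lists, 9.76% to 14.7%, lay under the 18.2% of all measured genes, and 14.3% of all measured genes were lower. With TMM scaling 3 hypoxia and glycolysis genes were higher. The immediate early genes FOS and EGR1 were at 127 and 100.3 CPM in HCC38-like and at 49.0 and 38.8 CPM in Hs578T-like cells, whereas JUN was at 43.1 CPM in HCC38-like and 203 CPM in Hs578T-like cells.

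Cell cycle transcripts differed little between the summed lines. Over all measured genes 18.2% were higher and 14.3% lower in HCC38-like cells. Of 36 G1/S genes, 4 were at least 2-fold higher and 1 lower in HCC38-like cells (median log2 ratio 0.40), and of 40 G2/M genes 3 were higher and 1 lower (0.18). TMM scaling gave medians of 0.13 and -0.09, so the sign of the G2/M list rests on the scaling, and it left 1 G1/S gene higher. RRM2, a subunit of ribonucleotide reductase, was at 62.6 CPM in HCC38-like and 234 CPM in Hs578T-like cells, and HMGB2, a chromatin protein of dividing cells, at 425 CPM in HCC38-like and 135 CPM in Hs578T-like cells. Among 36 cell cycle regulators and tumour suppressors, 2 were higher and 6 lower, beside 18.2% and 14.3% of all measured genes. With TMM scaling 10 of 37 were lower, beside 20.8% of all measured genes. CCND1, which encodes a D-type cyclin, was at 716 CPM in HCC38-like and 708 CPM in Hs578T-like cells. Of 28 p53 target and apoptosis genes, 5 were higher (17.9%) and 4 lower (14.3%), shares close to those of all measured genes (18.2% and 14.3%). BCL2L11, a pro-apoptotic gene, was at 27.2 CPM in HCC38-like and 2.62 CPM in Hs578T-like cells.

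A block of genes on the short arm of chromosome 9 was near background in HCC38-like cells. The genes were searched for runs of at least 3 neighbours, each at 5% or less of both other lines of the capture, among genes at 5 CPM or more in both of those lines. HCC38-like cells held 1 such run, TUSC1, CAAP1 and PLAA (GRCh38, GENCODE v29, chr9:25676389-26947463, 1.27 Mb), with 14 low genes of 8908, and Hs578T-like cells held 0 runs with 85 low genes of 9028. TUSC1 was at 1.02 CPM in HCC38-like, 34.2 CPM in Hs578T-like and 22.02 CPM in CMO304 cells, CAAP1 at 0.414, 17.3 and 23.4 CPM and PLAA at 0.566, 19.05 and 18.9 CPM. The 3 genes lay at 2.99%, 2.40% and 2.97% of the Hs578T-like level, beside the 1st percentile of 3.09% given above for all cells and of 2.07% without doublets and mixed cells. IFT74, which lies next to PLAA, was at 0.457 CPM in HCC38-like, 18.3 CPM in Hs578T-like and 8.92 CPM in CMO304 cells.

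The genes on the side of CDKN2A were low in HCC38-like cells too. The cell cycle inhibitor gene CDKN2B was at 0.142 CPM in HCC38-like, 9.99 CPM in Hs578T-like and 2.29 CPM in CMO304 cells, and CDKN2A at 1.46, 3.88 and 126 CPM, so that it was low in both lines compared here. MTAP, of methionine salvage, was at 6.96 CPM in HCC38-like, 31.1 CPM in Hs578T-like and 46.4 CPM in CMO304 cells, which is 22.3% of the Hs578T-like level and above the carry-over. KLHL9, on the far side of MTAP, was at 13.5 CPM in HCC38-like, 18.5 CPM in Hs578T-like and 12.6 CPM in CMO304 cells. Low RNA of neighbouring genes does not by itself show a deletion, and no DNA was measured. Without doublets and mixed cells, the 259 HCC38-like cells with at least 10 VIM UMIs had CAAP1 at 0.180 CPM and PLAA at 0.0899 CPM, and over all 310 such cells both were at 1.53 CPM.

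**Figure D4:**
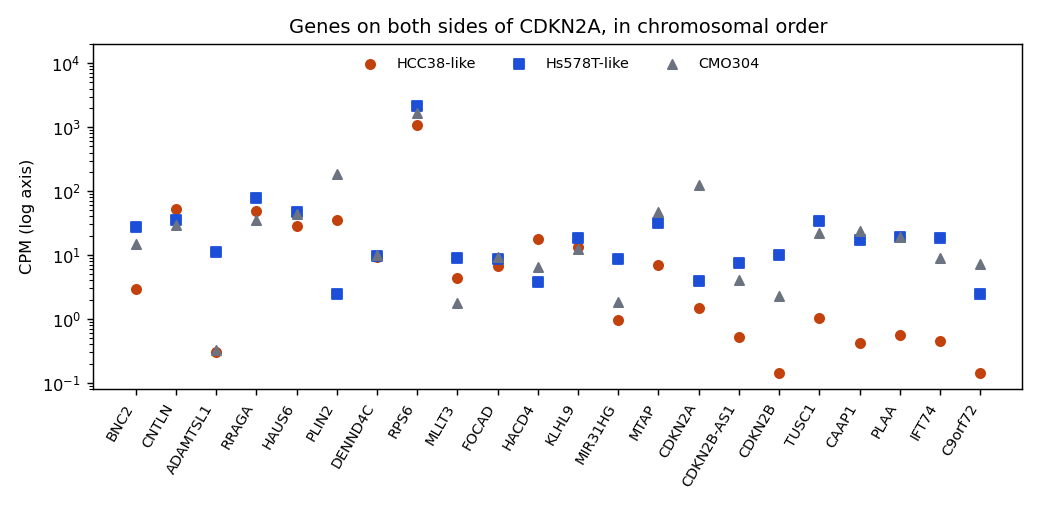
Summed CPM (log axis) of genes around CDKN2A on chromosome 9 in chromosomal order, for genes at 5 CPM or more in Hs578T-like or CMO304 cells, in HCC38-like (circles), Hs578T-like (squares) and CMO304 cells (triangles). From MIR31HG onward the HCC38-like circles lie lowest, while at KLHL9 the 3 lines lie between 12.6 and 18.5 CPM.

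Of 129 measured surface genes, 27 were higher, 49 lower and 53 within 2-fold in HCC38-like cells. All measured genes gave 18.2% higher and 14.3% lower. The median log2 ratio of the surface genes was -0.34. The list as a whole overlapped between cells of the lines, at a median of 1.23% of UMIs in HCC38-like cells (5th to 95th percentile 0.916% to 1.76%) and 1.61% in Hs578T-like cells (1.29% to 2.05%). The genes that follow were picked for the widest gap in share of cells. At 10000 UMIs per cell, EPCAM had a UMI in 94.9% of HCC38-like cells (94.0% to 95.8%) and in 3.57% of Hs578T-like cells (2.74% to 4.56%), with 97.1% and 12.8% unthinned. CMO304 cells, at 8.25%, show the share that a line with little EPCAM reaches in this capture. THY1 had a UMI in 8.27% of HCC38-like, 99.2% of Hs578T-like and 8.68% of CMO304 cells, so the HCC38-like share is at the background.

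The other epithelial surface genes were less complete per cell. CDH1 was detected in 55.7% of HCC38-like and 0.584% of Hs578T-like cells, F11R, a junctional adhesion molecule, in 66.4% of HCC38-like and 1.11% of Hs578T-like cells, and the sialoglycoprotein gene CD24 in 60.4% of HCC38-like and 7.60% of Hs578T-like cells. CD9, a tetraspanin, was detected in 89.4% of HCC38-like and 41.9% of Hs578T-like cells. On the side of Hs578T-like cells, ALCAM was detected in 8.86% of HCC38-like and 89.5% of Hs578T-like cells, CDH2 in 13.5% of HCC38-like and 89.8% of Hs578T-like cells, ITGA11 in 2.42% of HCC38-like and 65.7% of Hs578T-like cells and the adhesion molecule gene CADM1 in 2.42% of HCC38-like and 61.8% of Hs578T-like cells. Unthinned, CDH1 was detected in 86.8% of HCC38-like and 2.02% of Hs578T-like cells, and ITGA11 in 7.36% of HCC38-like and 94.2% of Hs578T-like cells.

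**Figure D5:**
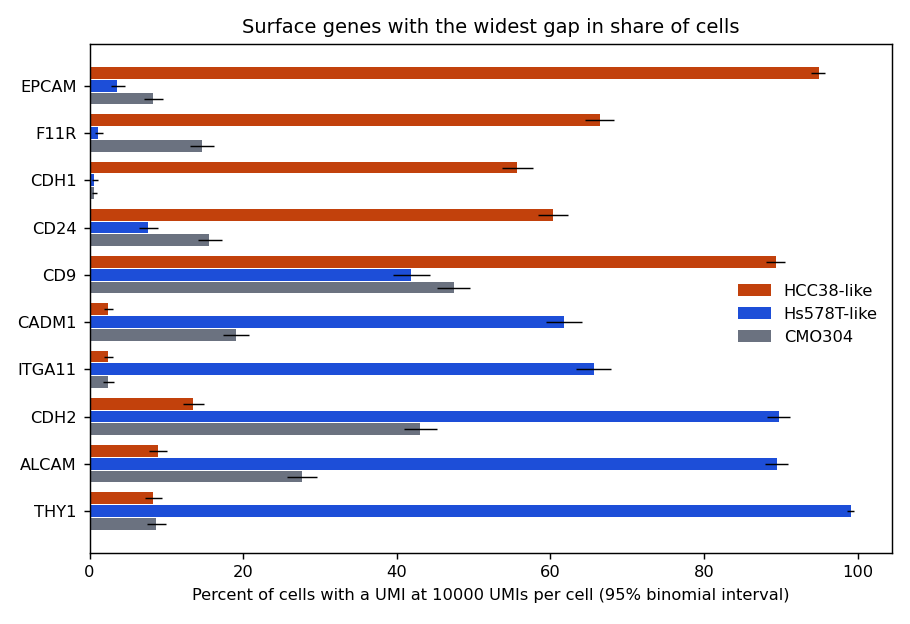
Percent of cells with a UMI at 10000 UMIs per cell for the 5 surface genes per line with the widest gap in share, in HCC38-like (2393), Hs578T-like (1711) and CMO304 cells (2097), with exact 95% binomial intervals. EPCAM and THY1 give the widest gaps, in opposite directions, and both are at or under 8.68% in CMO304 cells.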

How the data were processed

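Per the labels, a gene expression library and a multiplexing oligo library were made, and the authors deposited unnormalised UMI counts in 1 sparse matrix, with 36601 gene rows, 12 oligo rows and 17605 barcode columns. Per the file headers it comes from Cell Ranger 6.1.2. The submitters' processing notes name GRCh38 (hg38) as the build. How cells were called, how oligos were assigned and how captures were aggregated is not given in the sources used here. The gene list members, the lists and the comparison itself were chosen with earlier results of these data known, and the promoter search, the carry-over values, the run of low neighbours and the HCC38-like cells with low epithelial or high VIM content were chosen after the data were seen.

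Barcodes of suffix 4 (CMO306) and suffix 5 (CMO305) were filtered as stated in the report. No cell was removed as a doublet beyond the oligo share in the main values. As an alternative, cells called by Scrublet in scanpy 1.11.5 (46 of 6377, 0.721%) or holding at least 25% of the median content of 50 genes specific to another line of the capture (134) were left out. Counts were summed per line and scaled by the total gene UMIs of the line to CPM. Log2 ratios are of CPM + 1, HCC38-like over Hs578T-like. Plain folds are ratios of CPM, with exact conditional binomial intervals. CPM intervals are exact Poisson and shares of cells carry exact Clopper-Pearson intervals. A gene was measured at 10 CPM or more in either line, and a fold of 2 or more on the CPM + 1 scale was called. Shares of cells with a UMI were taken after thinning each cell to 10000 UMIs, which left out 81 HCC38-like and 22 Hs578T-like cells. Sequencing reads are not independent molecules, and UMIs share their droplets, so intervals cover counting error only.

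Named genes were 23 fixed anchors, the 12 highest and 12 lowest log2 ratios among genes at 100 CPM or more in either line, up to 4 genes at each end of each of 32 lists, and the 5 surface genes per line with the widest gap in share of cells. DSP, DSG2, CLDN3, CLDN4, CLDN7, CRB3, JUP, AXL, CCN1, CCN2, ID2, ID3, CNN2, TPM4, ISG15, B2M, FTH1, NQO1, CCND1, ITGB1 and MALAT1 and the genes next to CDKN2A were added after their values were seen. So were WNT7B, JAG1, HBEGF, MT1M and MT2A. Some genes that the rule names or the lists hold are not reported here. The counting step was tested on simulated data. Gene positions came from GENCODE v29 (34616 of 36601 genes matched by identifier) and promoter sequences from RefSeq, GRCh38.p14. Python 3.11.15, numpy 2.4.6, scipy 1.17.1, pandas 2.3.3, R 4.3.3 and edgeR 4.0.16 (TMM factors only) were used. Alternatives were other scalings, pseudocounts, gene filters, cell filters, weights of cells and thinning depths.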

Additional observations from a re-analysis of the deposited data

How the results depend on the processing

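No paired analysis was possible because each line was 1 culture. Over 13 alternatives of scaling, pseudocount, gene filter, cell filter, doublet removal and cell weighting, none of the 252 named genes that was at least 2-fold apart changed direction, and 17 of those 222 fell under 2-fold in some alternative. Named genes that rose past 2-fold in an alternative, such as EGFR with TMM scaling, were not counted. TMM and median-of-ratios scaling each moved the median of all genes by about 0.30 on the log2 scale (to -0.16) and the share of higher genes among called ones to 37.1%, from the 56.0% of CPM. With a pseudocount of 5 CPM, 148 genes passed 8-fold upward and 92 downward. Without a gene filter 3138 passed 2-fold upward and 2051 downward. With a filter of 50 CPM the counts were 684 and 569 at 2-fold and 147 and 113 at 8-fold, and fewer genes were tested (4107), with 22 epithelial junction genes and 5 interferon genes higher and 9 EMT transcription factors lower. Thinning to 5000 UMIs left 4 of the 10 named surface genes with shares at least 50 percentage points apart, where 9 were so at 10000 UMIs. Requiring 95% of oligo UMIs from 1 oligo left 1012 HCC38-like and 414 Hs578T-like cells. Genes under about 1 to 3% of their level in another line of the capture cannot be told from carried-over transcripts at this depth.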

Other observations

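HOX genes, which keep the positional identity of a tissue, were mostly at least 2-fold higher in HCC38-like cells, 12 of 17 measured, with 2 at least 2-fold lower and a median log2 ratio of 1.79. Most of the higher genes reached 10 CPM only in HCC38-like cells, so the gene filter itself favours high ratios in this list. HOXB7 was at 72.5 CPM in HCC38-like and 0.888 CPM in Hs578T-like cells, HOXC13 at 37.0 CPM in HCC38-like and 0.333 CPM in Hs578T-like cells and HOXB8 at 13.8 CPM in HCC38-like and 0.153 CPM in Hs578T-like cells. The 2 lower genes were of the A cluster, HOXA9 (2.32 CPM in HCC38-like and 14.4 CPM in Hs578T-like cells) and HOXA10 (13.99 and 33.4 CPM). The long noncoding RNA HOTAIR, which lies in the C cluster, was at 18.2 CPM in HCC38-like and 0.444 CPM in Hs578T-like cells. Of 18 long noncoding RNAs, 6 were higher and 5 lower, beside 18.2% and 14.3% of all measured genes. MIR205HG, the host transcript of an epithelial microRNA, was at 98.8 CPM in HCC38-like and 1.14 CPM in Hs578T-like cells, and the imprinted gene MEG3 at 2.06 CPM in HCC38-like and 86.0 CPM in Hs578T-like cells. MALAT1, a nuclear RNA, was at 13072 CPM in HCC38-like, 5630 CPM in Hs578T-like and 6329 CPM in CMO304 cells.

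Germline and neuronal genes were divided by line. Of 20 measured, 5 were higher and 13 lower in HCC38-like cells, with a median log2 ratio of -2.11. The cancer-testis antigen genes CTAG2 (0.555 CPM in HCC38-like and 38.7 CPM in Hs578T-like cells) and PAGE5 (0.425 and 21.1 CPM) were lower, and MAGEA10 (15.7 CPM in HCC38-like, 1.08 CPM in Hs578T-like and 77.4 CPM in CMO304 cells) was higher. Reads can be shared within the MAGEA family. NEFL, the neurofilament light chain, was at 1.37 CPM in HCC38-like and 93.9 CPM in Hs578T-like cells, and at 10000 UMIs 75.2% of Hs578T-like cells held none of it. UCHL1, a deubiquitinase abundant in neurons, was at 444 CPM in HCC38-like, 8.60 CPM in Hs578T-like and 535 CPM in CMO304 cells. The estrogen receptor gene ESR1 was at 0.120 CPM in HCC38-like and 0.0555 CPM in Hs578T-like cells, while GATA3, a luminal factor, was at 62.5 CPM in HCC38-like and 7.64 CPM in Hs578T-like cells.

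MGP, which encodes matrix Gla protein, was uneven over HCC38-like cells. It was at 1421 CPM in HCC38-like and 20.9 CPM in Hs578T-like cells, and at 10000 UMIs HCC38-like cells held a median of 4 UMIs with a 95th percentile of 73, while 22.7% held none. In the 31 HCC38-like cells with a low epithelial share it was at 17.1 CPM.

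By chromosome, the median log2 ratio was 0.73 on chromosome 16 (436 measured genes, 35.3% at least 2-fold higher and 4.13% lower), 0.60 on chromosome 18 and 0.54 on chromosome 20. The lowest medians were -0.52 on chromosome 22, -0.47 on chromosome 8 and -0.44 on chromosome 7. No DNA was measured, and copy number was not tested.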
